A study of Mus musculus with 8 samples.

Results

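The comparison described here sets CypD KO cells kept at 21% oxygen against Control cells kept at 1% oxygen, in B16F10, a mouse melanoma line. Its members are the 4 libraries, of 8 in the series, that the sample labels assign to these groups, 2 CypD KO and 2 Control. CypD KO cells carry a CRISPR/Cas9 knockout of *Ppif*, the gene for cyclophilin D (CypD), and were stable transfectants selected with puromycin. Control cells were stably transfected with the empty pcDNA vector, with no edit of *Ppif* described, and were selected with G418. WT cells, unmodified B16F10 at 21% oxygen, and libraries labelled CypD OE, a stable *Ppif*-overexpressing line at 1% oxygen, make up the other 4. All cells were incubated for 24 h. Per the methods, clones were selected in making both lines. Genotype, oxygen, transfected vector, drug selection and the selected clones all differ between CypD KO and Control, so their parts in a difference cannot be told apart. Whether the libraries of a group came from separate cultures or clones is not given in the sources used here, and p-values then measure only the spread between these libraries, which may be technical.

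The comparison asks how closely the transcriptome of cells without CypD in ample oxygen resembles that of cells short of oxygen. In oxygen, prolyl hydroxylases of the EGLN family modify HIF1α, which the VHL protein then marks for degradation. When oxygen is scarce the modification stops, HIF1α joins ARNT in the nucleus and the pair switches on genes for glycolysis, angiogenesis and mitophagy. A HIF programme that runs although oxygen is present is called pseudohypoxia. CypD itself is a mitochondrial matrix isomerase that regulates opening of the permeability transition pore.

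Expression was measured by RNA-seq and given as TPM, a relative abundance of transcripts which adjusts for transcript length and for the total of each library. Values in brackets after a gene are log2 differences, CypD KO minus Control, of log2(TPM + 1), so a positive value means higher in CypD KO, and the added 1 understates the change of weakly expressed genes. For the main genes it comes with its standard error (SE) and an adjusted p from limma, a linear model fitted across all genes and all 8 libraries. A gene was called when the adjusted p was under 0.05, and was termed alike when the 95% confidence interval of the difference lay wholly within 1.5-fold in either direction. A gene can be both. With 2 libraries against 2, an exact permutation test cannot go below p = 0.333, so none was used for single genes. The values of each gene in WT, where given, show its level in unmodified cells at 21% oxygen.

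*Ppif* measured 10.4 and 12.1 TPM in CypD KO, 44.6 and 42.2 TPM in Control and 50.68 and 49.99 TPM in WT. In the libraries labelled CypD OE it was listed at 50.3 and 49.3 TPM, no higher than in WT, so their labelled overexpression was not seen at this gene. Both knockout libraries were low, and the groups did not overlap (-1.86 ± 0.07 SE, adjusted p = 4.42e-06). The gene lies on chromosome 14, from 25694522 to 25707332 in GRCm39, and the transcript that remains in knockout cells can be altered by the edit without being lost. The melanocyte gene *Tyrp1* was abundant in all 4 libraries, at 6601 and 6522 TPM in CypD KO and 10441 and 10632 TPM in Control. Not every melanocyte gene was abundant, as given below. Markers of keratinocytes and other epithelia were at 0 in all 4 libraries (4 of 4 markers, *Krt5*, *Krt14*, *Epcam* and *Krt8*). Of 7 leukocyte markers 0 reached 1 TPM in any of the 4 libraries and 4 were at 0, with summed levels of 0.29 to 0.7 TPM in CypD KO and 0.31 to 0.43 TPM in Control. Endothelial markers summed to 0.56 to 1.01 TPM in CypD KO and 0.39 to 1.18 TPM in Control, with *Cdh5* and *Tie1* at 0. Of 7 fibroblast markers 3 passed the expression filter. *Postn* was higher in CypD KO (1.78), *Col1a2* (-2.16) and *Pdgfrb* (-0.49) were lower, the last not past the test without either CypD KO library or the second Control library (adjusted p from 0.0604 to 0.146), *Dcn* was at 0, and the list summed to 35.4 to 38.3 TPM in CypD KO and 21.2 to 22.8 TPM in Control.

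Of 55414 genes in the table, 12976 were tested, those with 1 TPM or more in 2 or more of these 4 libraries. In CypD KO 3741 were higher (28.8%) and 2265 were lower (17.5%), which makes 6006 called genes (46.3%). The difference exceeded 2-fold for 861 of the higher (6.64% of genes tested) and 268 of the lower (2.07%). At the same time 6947 genes (53.5%) were alike, among them 2283 of the called genes. The other 2306 genes were neither called nor alike, so these 4 libraries do not place them. The median log2 difference over all genes was 0.07, and the balance of directions depended on it. With median-of-ratios scaling, which centres the libraries on their typical gene, 3002 genes were higher and 3084 lower, so the share of calls that were higher moved from 62.3% to 49.3%. The filter admitted 764 genes through CypD KO alone and fewer through Control alone. Among the 11571 that passed in both groups, 3302 (28.5%) were higher and 2110 (18.2%) lower. Counts given for gene lists are to be read beside the shares over all genes tested, 28.8% higher, 17.5% lower and 53.5% alike.

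**Figure D1:**
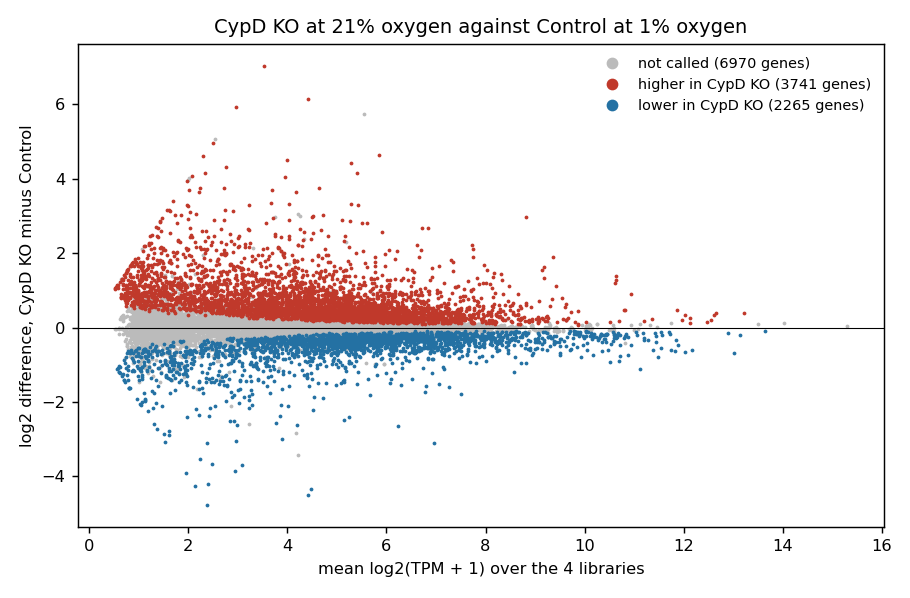
Each point is one of the 12976 genes tested, by its mean log2(TPM + 1) over the 4 libraries and its log2 difference, CypD KO minus Control. Red marks 3741 genes higher in CypD KO, blue 2265 lower and grey the genes not called, and the upper side holds more of the large differences than the lower side.

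The HIF system itself was expressed at similar levels in both groups, apart from *Epas1* and *Egln1*. Of the 11 genes for HIF subunits and oxygen-sensing hydroxylases 8 passed the filter, of which 3 were higher in CypD KO, 1 was lower and 6 were alike, with a median difference of 0.08. With median-of-ratios scaling 1 was higher and 1 lower. *Hif3a*, *Arnt2* and *P4htm* did not reach the filter.

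*Hif1a*, the oxygen-regulated subunit, was listed at 157 and 149.5 TPM in CypD KO, 138 and 135 TPM in Control and 139 and 152 TPM in WT. The CypD KO libraries lay just above the Control libraries (0.17 ± 0.05 SE, adjusted p = 0.0321), and the interval from 0.05 to 0.29 placed the gene among those alike. Its partner *Arnt* behaved similarly, at 45.8 and 43.4 TPM in CypD KO and 37.4 and 36.9 TPM in Control (0.26 ± 0.08 SE, adjusted p = 0.029). Neither call was firm. With median-of-ratios scaling the adjusted p was 0.269 for *Hif1a* and 0.133 for *Arnt*, and leaving out any 1 of the 4 libraries gave 0.0504 to 0.158 for *Hif1a* and 0.0631 to 0.137 for *Arnt*. *Epas1*, which encodes HIF2α, was weakly expressed, at 5.87 and 4.73 TPM in CypD KO, 2.01 and 2.59 TPM in Control and 5.9 and 5.22 TPM in WT. Here the Control libraries were the low ones (0.93 ± 0.14 SE, adjusted p = 0.00183). *Vhl* (0.11), *Egln2* (0.06) and *Hif1an*, the asparaginyl hydroxylase FIH (-0.10), were not called, and each was alike.

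*Egln1*, the principal prolyl hydroxylase and itself a HIF target, was listed at 70.9 and 68.9 TPM in CypD KO, 102 and 99.3 TPM in Control and 22.1 and 21.9 TPM in WT. Both groups were above WT, Control more so, and CypD KO was lower than Control (-0.52 ± 0.05 SE, adjusted p = 1.83e-04). The libraries labelled CypD OE and 1% oxygen were at 21.2 and 22.4 TPM, close to WT. *Egln3*, the most strongly hypoxia-induced member of the family in many cells, was at 8.52 and 7.35 TPM in CypD KO, 8.06 and 7.06 TPM in Control and 1.35 and 1.14 TPM in WT. Its libraries overlapped between CypD KO and Control and the gene was alike (0.06 ± 0.17 SE, adjusted p = 0.798).

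HIF binds the core letters ACGTG or GCGTG, so promoters of the oxygen-responsive genes were searched for them on both strands, from 250 bases before to 50 after the start (RefSeq promoter sequences of GRCm38.p6, the first promoter of each gene). A CACGTG counts on both strands. The letters were present in 25 of 29 promoters of HIF targets outside glycolysis (86.2%), 22 of 30 of glycolysis genes (73.3%) and 6 of 10 of HIF subunits and hydroxylases, against 11836 of 27025 promoters in all (43.8%). They were as frequent among ER chaperone genes, a list with no assigned role in oxygen sensing (13 of 16, 81.2%). Among extracellular matrix genes they were less frequent (12 of 21, 57.1%). Within the 3 oxygen lists they were found in 22 of 28 genes lower in CypD KO (78.6%), 12 of 16 higher (75.0%) and 13 of 16 not called (81.2%), shares that lie close together. The windows shown are the match nearest the start for 3 genes lower in CypD KO, 3 that were alike and 2 that were higher, picked after their values were seen to let the surrounding bases be compared. Capitals mark the core, or its complement where the match is on the opposite strand, each window is written on the gene's strand, and the windows were matched in the genome, with GRCm39 positions.
Slc16a3, lower (chr11:120839869-120839893, + strand): tgcgcgggggACGTGccgcgcgacg
Egln1, lower (chr8:125676047-125676071, - strand): gccgtggtgtACGTGcagcgcgcgc
Car9, lower (chr4:43506998-43507022, + strand): atttccgatgCACGTacagcccgtc
Egln3, alike (chr12:54250875-54250899, - strand): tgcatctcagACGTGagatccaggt
Bnip3, alike (chr7:138511256-138511280, - strand): ctccgccgccGCGTGcgtcccgccc
Ddit4, alike (chr10:59787693-59787717, - strand): cctggaggggGCGTGgcctcgccgg
Plin2, higher (chr4:86588285-86588309, - strand): ctgggctatcACGTGgctcggaggc
Pgf, higher (chr12:85224197-85224221, - strand): cctgcggggtCACGCgcactcaggt
These windows begin upstream of the start in every case, with the core between 3 bases (*Plin2*) and 229 bases (*Egln3*) before it. No match was present in the windows of *Vegfa*, *Eno2*, *Hk1* and *Tpi1*.

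Most classical HIF targets outside glycolysis were above WT in both groups, and most of those that were called were lower in CypD KO than in Control. Of 36 genes 29 passed the filter, 6 were higher in CypD KO, 13 were lower and 8 were alike, with a median of -0.28 against 0.07 over all genes. With median-of-ratios scaling 4 were higher and 15 lower. Against WT, 23 of the 29 were called higher and 3 lower in CypD KO, and 24 higher and 0 lower in Control, with median differences of 1.38 and 1.37. These last values share the WT libraries and were therefore not compared with a test, and the difference between CypD KO and Control is given gene by gene instead.

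*Bnip3*, which directs mitochondria to autophagy, was listed at 258 and 249 TPM in CypD KO, 311 and 307 TPM in Control and 14.4 and 11.1 TPM in WT. Both groups stood far above WT, the CypD KO libraries lay below the Control libraries, and the gene was alike without being called (-0.28 ± 0.11 SE, adjusted p = 0.065). *Ddit4*, an inhibitor of mTORC1 signalling, was at 39.8 and 40.1 TPM in CypD KO, 41.5 and 42.1 TPM in Control and 9.3 and 7.6 TPM in WT. It too was alike (-0.06 ± 0.09 SE, adjusted p = 0.627). The transcriptional repressor *Bhlhe40* differed as little, at 98.4 and 92.9 TPM in CypD KO and 96.8 and 100.2 TPM in Control (-0.04 ± 0.07 SE, adjusted p = 0.639). *Adm*, the vasodilator peptide adrenomedullin, was at 15.6 and 13.2 TPM in CypD KO, 20.6 and 16.7 TPM in Control and 1.24 and 0.16 TPM in WT, but its interval was too wide for it to be called alike (-1.09 to 0.39).

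Among the targets lower in CypD KO, *Car9*, the cell-surface carbonic anhydrase used as a marker of hypoxia, was listed at 7.88 and 6.99 TPM in CypD KO, 16.3 and 14.5 TPM in Control and 3.11 and 2.07 TPM in WT. CypD KO lay between the other groups without overlap (-0.96 ± 0.18 SE, adjusted p = 0.00445). The mitochondrial protein gene *Higd1a* followed the same order, at 142 and 137 TPM in CypD KO, 231 and 243 TPM in Control and 52.3 and 51.2 TPM in WT (-0.76 ± 0.05 SE, adjusted p = 3.73e-05). *Stc1*, a secreted glycoprotein, was at 1.63 and 1.99 TPM in CypD KO and 6.98 and 6.48 TPM in Control (-1.46 ± 0.15 SE, adjusted p = 2.33e-04). *Selenbp1* was at WT levels in CypD KO, 7.32 and 6.83 TPM against 6.95 and 7.6 TPM, and at 20.1 and 21.5 TPM in Control (-1.44 ± 0.11 SE, adjusted p = 6.99e-05). *Ndrg1*, a hypoxia- and stress-responsive gene, was highest in Control, with 27.6 and 29.1 TPM in CypD KO, 47.1 and 48.6 TPM in Control and 33.3 and 33.2 TPM in WT (-0.74 ± 0.05 SE, adjusted p = 5.68e-05).

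The 6 targets higher in CypD KO included *Vegfa*, *Plin2* and *Pgf*. *Vegfa*, the angiogenic growth factor, was listed at 76.5 and 77.9 TPM in CypD KO, 58.8 and 58.3 TPM in Control and 14 and 12.6 TPM in WT. The step from WT was the larger one, and the groups still did not overlap (0.39 ± 0.06 SE, adjusted p = 0.00192). *Plin2*, which coats lipid droplets, was at 152 and 171 TPM in CypD KO, 76.8 and 86.2 TPM in Control and 56.3 and 62.2 TPM in WT (0.98 ± 0.08 SE, adjusted p = 1.11e-04). *Pgf*, a placental relative of VEGF, was at 6.13 and 7.65 TPM in CypD KO and 2.74 and 2.81 TPM in Control (1.06 ± 0.22 SE, adjusted p = 0.00728).

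**Figure D2:**
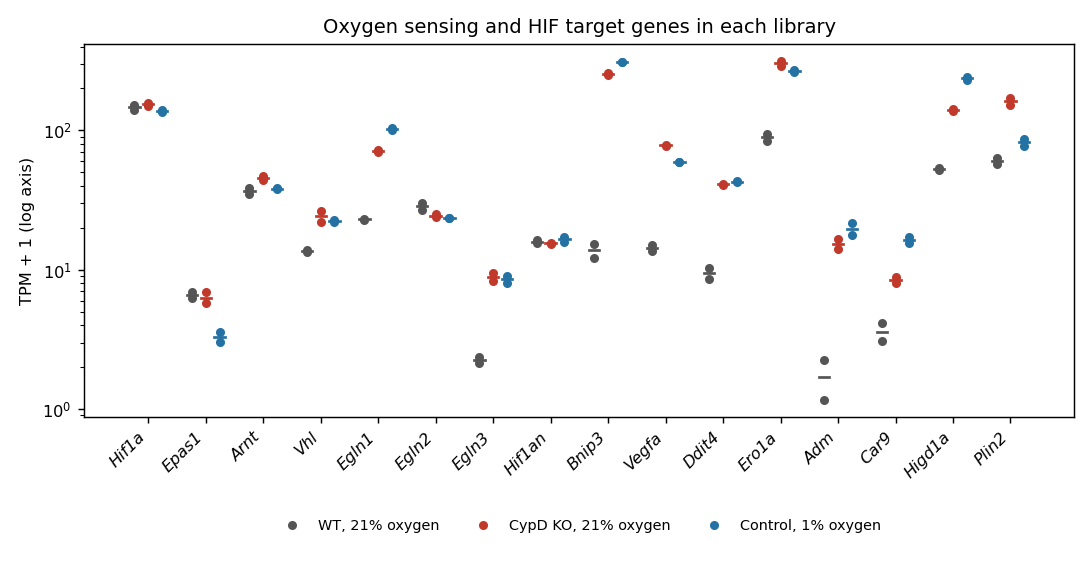
TPM + 1 on a log axis for oxygen-sensing genes and HIF targets, with points for each library and a bar for the group mean, in WT (grey), CypD KO (red) and Control (blue). *Bnip3*, *Ddit4* and *Egln3* sit high in both CypD KO and Control, and *Egln1*, *Car9* and *Higd1a* are higher in Control.

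Glycolysis was above WT in both groups and higher in Control. Of 31 genes 30 passed the filter (1 of them, *Pdk2*, through CypD KO alone), 17 were lower in CypD KO, 10 were higher and 14 were alike, with a median of -0.40. The median difference from WT was 0.83 in CypD KO and 1.08 in Control. Of the 30, 24 were called above WT and 0 below in CypD KO, and 21 above and 1 below in Control. Genes lower in CypD KO were found along the pathway, from the glucose transporter *Slc2a1* (-0.41) and hexokinase *Hk2* (-0.45) to phosphofructokinase *Pfkl* (-0.73), *Aldoa* (-0.61), *Tpi1* (-0.73), *Pgk1* (-0.55) and *Eno1* (-0.47), each called. *Gapdh* was lower by less (-0.14 ± 0.03 SE, adjusted p = 0.0061) and was alike, and its call was lost without a filter on low TPM (0.0654) or without the trend in the fit (0.0696).

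*Slc16a3*, the MCT4 transporter that exports lactate, had the largest difference of the list. It was listed at 27.5 and 30.2 TPM in CypD KO, 177 and 197 TPM in Control and 7.89 and 7.9 TPM in WT. CypD KO was above WT and far below Control (-2.66 ± 0.21 SE, adjusted p = 8.42e-05). The libraries labelled CypD OE and 1% oxygen were at 0.42 and 1.36 TPM, below WT. *Slc16a1*, the MCT1 transporter, was alike at 62.6 and 58.6 TPM in CypD KO and 59.1 and 62.3 TPM in Control. *Ldha*, which makes lactate from pyruvate, was at 2215 and 2167 TPM in CypD KO, 3706 and 3853 TPM in Control and 1277 and 1236 TPM in WT (-0.79 ± 0.04 SE, adjusted p = 8.39e-06), while *Ldhb* was higher in CypD KO (0.39 ± 0.05 SE, adjusted p = 7.91e-04). *Pdk1*, a kinase that inhibits pyruvate dehydrogenase, was at 63.4 and 60.4 TPM in CypD KO, 101 and 113 TPM in Control and 7.35 and 7.26 TPM in WT (-0.78 ± 0.24 SE, adjusted p = 0.0337), a call that was lost without any 1 of the 4 libraries (adjusted p from 0.0803 to 0.135).

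The 10 genes of the list that were higher in CypD KO included isoforms of glycolytic enzymes. *Eno2*, the neuronal enolase, was listed at 31.4 and 34.9 TPM in CypD KO, 7.53 and 10.3 TPM in Control and 8.23 and 6.59 TPM in WT, high in both CypD KO libraries (1.80 ± 0.18 SE, adjusted p = 2.16e-04). *Hk1* was at 160.1 and 161 TPM in CypD KO, 80.9 and 80.8 TPM in Control and 62.8 and 60.4 TPM in WT (0.98 ± 0.04 SE, adjusted p = 3.30e-06). Its partner in the first step, *Hk2*, had the opposite order, with 105 and 104 TPM in CypD KO and 143 and 143 TPM in Control. *Aldoc* was lower in CypD KO, like *Aldoa*, and was high in both Control libraries. It was listed at 5.78 and 6.04 TPM in CypD KO, 19.4 and 19.9 TPM in Control and 5.48 and 4.86 TPM in WT (-1.58 ± 0.14 SE, adjusted p = 1.40e-04).

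**Figure D3:**
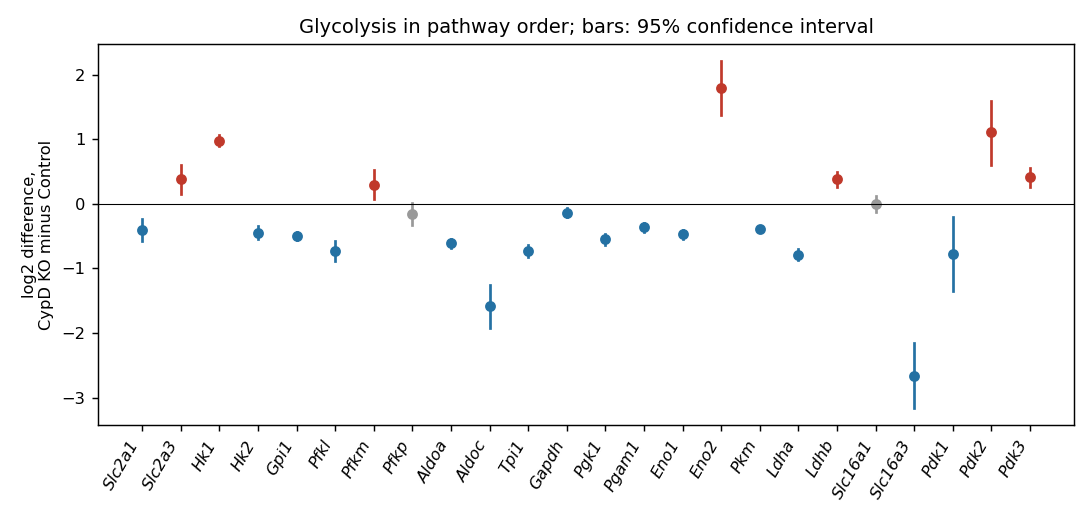
Log2 difference, CypD KO minus Control, with its 95% confidence interval for glucose transporters, glycolytic enzymes, lactate transporters and pyruvate dehydrogenase kinases in pathway order. Most points lie below 0 (blue, lower in CypD KO), *Slc16a3* lowest at -2.66, while *Hk1*, *Eno2* and *Pdk2* lie near or above 1 (red), and grey points were not called.

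Among oxygen-dependent enzymes that modify chromatin, the JmjC demethylases and TET enzymes, 21 of 22 passed the filter, 4 were higher in CypD KO, 9 lower and 13 alike, with a median of -0.06. *Tet1*, a 5-methylcytosine dioxygenase, was listed at 2.49 and 2.38 TPM in CypD KO, 7.08 and 10.2 TPM in Control and 4.53 and 5.19 TPM in WT. It was low in both CypD KO libraries (-1.47 ± 0.17 SE, adjusted p = 4.61e-04), as was *Tet2* (-0.88 ± 0.09 SE, adjusted p = 3.19e-04). *Kdm7a* (1.12 ± 0.10 SE, adjusted p = 1.70e-04) and *Kdm5b* (0.87 ± 0.12 SE, adjusted p = 9.60e-04) were higher in CypD KO. Of the collagen hydroxylases and lysyl oxidases 14 of 19 passed, 4 were higher, 6 lower and 10 alike, with a median of -0.12. The share that was higher was close to the 28.8% over all genes tested, while the share that was lower was above the 17.5% over all genes. With median-of-ratios scaling 4 were higher and 7 lower. *Loxl2*, which crosslinks collagen, was at 11.6 and 12.3 TPM in CypD KO, 29.3 and 31.3 TPM in Control and 0.70 and 0.59 TPM in WT. Both groups were far above WT and Control was the higher (-1.27 ± 0.12 SE, adjusted p = 1.66e-04). *P4ha2* was lower in CypD KO (-0.64), whereas *P4ha1* was alike and slightly higher (0.26), although both encode the catalytic subunit of collagen prolyl 4-hydroxylase.

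The largest median difference of any list belonged to matrix and adhesion genes, which were high in CypD KO and on the median closer to WT in Control. Of 32 genes 24 passed the filter, 22 were higher in CypD KO, 2 lower and 2 alike, with a median of 1.36. The median difference from WT was 2.02 in CypD KO and 0.24 in Control. Against WT, 21 were called higher and 0 lower in CypD KO, and 11 higher and 2 lower in Control. The 8 that did not pass included *Col6a1*, *Tnc*, *Mmp9* and *Tgfbi*. Fibroblasts also make these proteins. The summed level of 7 fibroblast markers was higher in CypD KO too (35.4 to 38.3 TPM against 21.2 to 22.8 TPM), most of it *Postn* in CypD KO. Of the 3 markers that passed the filter, *Postn* was higher, while *Col1a2* (-2.16) and *Pdgfrb* (-0.49) were lower. *Dcn* was at 0, and *Pdgfra*, *Lum* and *Col3a1* did not pass. The part of fibroblasts in the result was not tested.

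*Fn1*, fibronectin, was listed at 289 and 286 TPM in CypD KO, 42.9 and 45 TPM in Control and 28.4 and 31.1 TPM in WT. Its integrin receptor subunit *Itga5* was at 36.5 and 34.2 TPM in CypD KO, 3.23 and 4.17 TPM in Control and 3.86 and 3.41 TPM in WT. Both were high in the 2 CypD KO libraries (*Fn1*: 2.68 ± 0.05 SE, adjusted p = 5.81e-07, *Itga5*: 2.96 ± 0.13 SE, adjusted p = 6.95e-06). *Thbs1*, the matricellular protein thrombospondin 1 and an activator of latent TGF-β, was at 91.1 and 91.1 TPM in CypD KO and 5.8 and 5.83 TPM in Control (3.76 ± 0.06 SE, adjusted p = 4.26e-07). *Timp1*, an inhibitor of matrix metalloproteinases, was at 59.2 and 65.3 TPM in CypD KO and 2.3 and 3.36 TPM in Control (4.06 ± 0.17 SE, adjusted p = 6.20e-06). The urokinase receptor *Plaur* was at 61.4 and 62.4 TPM in CypD KO and 5.37 and 9.02 TPM in Control (2.98 ± 0.21 SE, adjusted p = 5.30e-05). The YAP-responsive secreted proteins *Ccn1* (2.09) and *Ccn2* (3.31) and the collagen genes *Col1a1* (3.35) and *Col5a1* (2.37) were higher as well. *Col4a1* (-0.69) and *Col4a2* (-0.29), the basement membrane collagens, were lower. Neither collagen kept its call throughout. That of *Col4a1* was lost without the first CypD KO library (adjusted p = 0.0679) or the first Control library (0.0593), and that of *Col4a2* without any 1 of the 4 (0.0609 to 0.192). With *Col1a2* lower and *Col1a1* higher, the 2 chains of type I collagen went in opposite directions. *Spp1*, osteopontin, was an exception in Control, at 49.7 and 47.9 TPM in CypD KO, 33.5 and 31.5 TPM in Control and 4.68 and 2.96 TPM in WT (0.57 ± 0.17 SE, adjusted p = 0.0283, and 0.079 to 0.121 without any 1 of the 4 libraries).

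Genes of TGF-β, YAP and AP-1 signalling went with them. Of 24 genes 22 passed (4 through CypD KO alone), 18 were higher in CypD KO, 1 lower and 2 alike, with a median of 1.07. Of the 18 that passed in both groups 14 were higher and 1 lower, with a median of 0.94. The median difference from WT was 1.28 in CypD KO and -0.01 in Control. The ligand *Tgfb1* was listed at 15.1 and 14.1 TPM in CypD KO, 1.43 and 0.81 TPM in Control and 2.42 and 2.74 TPM in WT (2.89 ± 0.17 SE, adjusted p = 2.21e-05). *Tgfb1* was 1 of the 4 that passed through CypD KO alone. Of its receptors, *Tgfbr2* was higher in CypD KO (1.03) and *Tgfbr1* lower (-0.51), both called. The feedback inhibitors *Smad7* (1.23) and *Skil* (1.53), which TGF-β induces, were higher. The AP-1 subunits *Junb* (2.15), *Fosl2* (1.46), *Jun* (1.17) and *Jund* (1.12) were higher, while *Fos* was not called (0.36 ± 0.17 SE, adjusted p = 0.125). *Axl*, a receptor tyrosine kinase of invasive melanoma states, was at 45 and 42 TPM in CypD KO, 3.69 and 6.74 TPM in Control and 8.22 and 6.42 TPM in WT (2.88 ± 0.23 SE, adjusted p = 8.29e-05).

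Of 10 EMT transcription factors and cadherins 4 passed the filter. *Snai2*, which encodes Slug, was listed at 20.2 and 19.6 TPM in CypD KO, 5.5 and 5.99 TPM in Control and 4.44 and 4.37 TPM in WT (1.63 ± 0.09 SE, adjusted p = 1.77e-05). *Vim* was at 2482 and 2460 TPM in CypD KO and 1005 and 1038 TPM in Control (1.27 ± 0.03 SE, adjusted p = 5.81e-07). *Cdh2*, N-cadherin, was higher within the range termed alike (0.48), and *Zeb2* was lower within that range (-0.19), a call lost without the second CypD KO library (adjusted p = 0.223) or the first Control library (0.216). *Snai1*, *Twist1*, *Twist2*, *Zeb1*, *Cdh1* and *Cdh3* were below 1 TPM in all 4 libraries, *Twist1* and *Twist2* at 0.

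Of 19 S100 proteins and annexins, calcium-binding proteins of the cytoplasm and membrane, 16 passed the filter (1 through CypD KO alone), 13 were higher in CypD KO, 0 lower and 4 alike, with a median of 0.98. With median-of-ratios scaling 12 were higher and 1 lower. *S100a6* was listed at 288 and 290.4 TPM in CypD KO, 12.4 and 8.91 TPM in Control and 11.2 and 8.22 TPM in WT. *S100a4*, a protein associated with metastasis, was at 176 and 179.6 TPM in CypD KO, 9.76 and 8.51 TPM in Control and 6.68 and 2.07 TPM in WT. The CypD KO libraries were high and close together for both (*S100a6*: 4.65 ± 0.21 SE, adjusted p = 7.77e-06, *S100a4*: 4.15 ± 0.38 SE, adjusted p = 1.66e-04). *Anxa1* (1.34) and *Anxa2* (0.73) were higher, and *Anxa6* was alike (0.03).

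Interferon-responsive and MHC class I genes were also higher in CypD KO. Of 28 genes 25 passed (5 through CypD KO alone), 17 were higher, 0 lower and 3 alike, with a median of 1.05. Of the 19 that passed in both groups 14 were higher and 0 lower. With median-of-ratios scaling 16 were higher and 1 lower. *B2m*, the light chain of MHC class I, was listed at 954 and 975 TPM in CypD KO, 339 and 319 TPM in Control and 281 and 303 TPM in WT (1.55 ± 0.04 SE, adjusted p = 1.30e-06). *Ifitm3*, which restricts virus entry, was at 138 and 129 TPM in CypD KO, 13.2 and 12.3 TPM in Control and 19.4 and 22.4 TPM in WT (3.29 ± 0.10 SE, adjusted p = 1.62e-06). *Isg15* (2.11) and *Xaf1* (3.15) were higher, and *Ifit2* was alike (0.04). Of the class I heavy chains *H2-D1* was higher (1.05 ± 0.09 SE, adjusted p = 9.36e-05), while *H2-K1* overlapped between groups, at 11.7 and 16.9 TPM in CypD KO and 12.3 and 15.3 TPM in Control (0.03 ± 0.38 SE, adjusted p = 0.959). The heavy chain genes are near-identical in parts, and the division of reads between them is uncertain.

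The pigment cell programme was lower in CypD KO. Of 19 melanocyte genes 18 passed the filter (1 of them, *Kit*, through Control alone), 14 were lower, 2 higher and 7 alike, with a median of -0.64. The median difference from WT was -0.27 in CypD KO and 0.40 in Control, so the groups lay on either side of WT. In bulk RNA, fewer cells of a kind and less RNA per cell cannot be told apart.

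*Trpm1*, a cation channel gene of melanocytes, was listed at 44.3 and 38.4 TPM in CypD KO, 374 and 348 TPM in Control and 150.2 and 145 TPM in WT. CypD KO was below WT and Control above it (-3.10 ± 0.09 SE, adjusted p = 1.43e-06). The libraries labelled CypD OE were lower still, at 9.28 and 10.9 TPM. *Kit*, the receptor for stem cell factor, was at 0.92 and 1.24 TPM in CypD KO and 9.07 and 9.92 TPM in Control (-2.34 ± 0.13 SE, adjusted p = 1.81e-05). The melanosome matrix gene *Pmel* was at 1530 and 1478 TPM in CypD KO, 3166 and 3403 TPM in Control and 2375 and 2309 TPM in WT (-1.13 ± 0.04 SE, adjusted p = 2.65e-06). The lineage transcription factors *Mitf* (-0.46), *Sox10* (-0.34) and *Pax3* (-0.32) were lower but alike. *Tyr*, tyrosinase, went the other way from its relatives *Tyrp1* (-0.68) and *Dct* (-0.60), at 167 and 147 TPM in CypD KO, 74.2 and 75.5 TPM in Control and 37.4 and 41.2 TPM in WT (1.06 ± 0.07 SE, adjusted p = 3.95e-05).

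**Figure D4:**
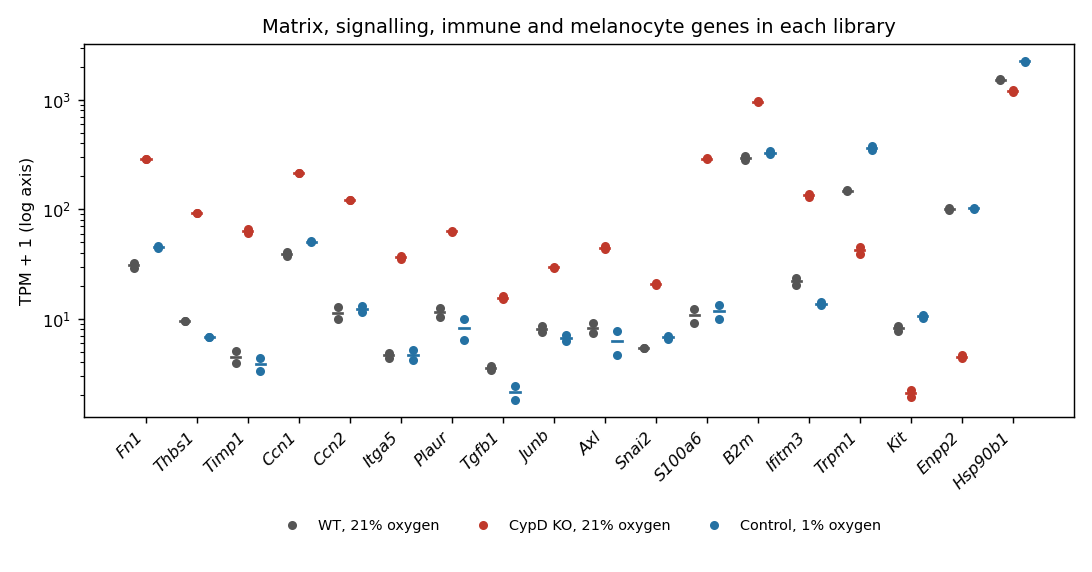
TPM + 1 on a log axis for matrix, signalling, immune, melanocyte and chaperone genes, with points for each library and a bar for the group mean, in WT (grey), CypD KO (red) and Control (blue). From *Fn1* to *Ifitm3* the CypD KO libraries lie above the others while Control lies near WT, and *Trpm1*, *Kit*, *Enpp2* and *Hsp90b1* are lowest in CypD KO.

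The ER chaperones, which fold secreted and membrane proteins, were lower in CypD KO almost throughout. All 18 genes of the list passed the filter, of which 15 were lower, 1 higher and 5 alike, with a median of -0.61. The median difference from WT was -0.22 in CypD KO and 0.36 in Control. *Hsp90b1*, the chaperone GRP94, was listed at 1190 and 1228 TPM in CypD KO, 2268 and 2239 TPM in Control and 1522 and 1543 TPM in WT (-0.90 ± 0.03 SE, adjusted p = 1.30e-06). *Hspa5*, the chaperone BiP, had the same order, at 881 and 834 TPM in CypD KO, 1301 and 1317 TPM in Control and 1084 and 1088 TPM in WT (-0.61 ± 0.03 SE, adjusted p = 1.16e-05). The disulfide isomerases *Pdia6* (-0.96) and *Pdia4* (-0.79) were lower, as were *Sdf2l1* (-1.09) and the transcription factor *Xbp1* (-0.64). *Dnajb9* was the 1 higher member (0.53 ± 0.06 SE, adjusted p = 4.32e-04).

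Genes of the ATF4 pathway, which restores amino acid supply under stress, differed in the opposite sense. Of 25 genes 23 passed, 17 were higher in CypD KO, 2 lower and 9 alike, with a median of 0.70. The median difference from WT was 0.15 in CypD KO and -0.29 in Control. Against WT, 12 were called higher and 6 lower in CypD KO, and 2 higher and 11 lower in Control. *Atf4* mRNA was alike, at 219.6 and 234 TPM in CypD KO and 226 and 231 TPM in Control. *Slc7a11*, the cystine importer, was listed at 10.6 and 11 TPM in CypD KO, 1.68 and 1.4 TPM in Control and 8.82 and 9.69 TPM in WT, so Control was the group away from WT (2.22 ± 0.10 SE, adjusted p = 7.62e-06). *Nupr1* was high in both CypD KO libraries, at 27.8 and 30.1 TPM, 6.46 and 5.95 TPM in Control and 4.47 and 3.38 TPM in WT (2.06 ± 0.16 SE, adjusted p = 6.82e-05). *Trib3* (1.55), *Sesn2* (1.25), *Ddit3* (0.94) and *Asns* (0.77) were higher.

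NRF2 and antioxidant genes held members high in CypD KO and members low in Control. All 23 passed, 12 were higher in CypD KO, 5 lower and 12 alike, with a median of 0.23. The median difference from WT was -0.16 in CypD KO and -0.26 in Control. Against WT, 4 were called higher and 12 lower in CypD KO, and 1 higher and 14 lower in Control. *Hmox1*, heme oxygenase 1, was listed at 192 and 193 TPM in CypD KO, 51.1 and 51.3 TPM in Control and 38.8 and 40.8 TPM in WT (1.89 ± 0.05 SE, adjusted p = 8.85e-07). *Srxn1*, which repairs oxidised peroxiredoxins, was at 68.1 and 66 TPM in CypD KO, 20.9 and 21.5 TPM in Control and 45.8 and 45.4 TPM in WT, with Control below WT (1.62 ± 0.05 SE, adjusted p = 1.74e-06). *Gclm* had the same order, at 137 and 133 TPM in CypD KO, 68.3 and 77.1 TPM in Control and 127 and 132 TPM in WT (0.89 ± 0.07 SE, adjusted p = 9.32e-05). *Nfe2l2*, the gene for NRF2, was alike (0.06). Of 12 iron and metallothionein genes 11 passed, 3 were higher, 2 lower and 7 alike, with a median of 0.03 that became -0.05 with median-of-ratios scaling. The shares higher and lower were close to those over all genes tested. The iron exporter *Slc40a1* was higher (1.87 ± 0.13 SE, adjusted p = 4.73e-05) and the transferrin receptor *Tfrc* was alike, at 281 and 273 TPM in CypD KO and 276 and 276 TPM in Control.

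The respiratory chain and the ribosomal proteins differed little between the groups. All 74 nuclear respiratory chain subunits passed the filter and 72 of them were alike, with a median of 0.05. Of the 74, 20 were higher in CypD KO and 14 lower, close to the shares over all genes tested (28.8% and 17.5%). With median-of-ratios scaling the direction turned, to 11 higher, 20 lower and a median of -0.04. *Ndufa7* (0.57 ± 0.05 SE, adjusted p = 1.02e-04) and *Cox7c* (0.52 ± 0.03 SE, adjusted p = 4.08e-05) were the 2 that were not alike. Of the 13 mitochondrially encoded proteins 11 were alike, 7 higher and 1 lower, with a median of 0.14, and with median-of-ratios scaling 4 were higher and 1 lower. *mt-Nd1* of complex I was listed at 7299 and 7506 TPM in CypD KO, 5815 and 5430 TPM in Control and 8360 and 8632 TPM in WT, the lowest in Control (0.40 ± 0.04 SE, adjusted p = 4.14e-04). *mt-Co1* was slightly lower in CypD KO (-0.10), a call lost without either CypD KO library or the first Control library (adjusted p from 0.0738 to 0.15). *mt-Nd3* varied within CypD KO, at 247 and 76.2 TPM, and could not be placed (-1.68 to 0.85). Its difference was -1.26 without the first of these libraries and 0.42 without the second. Mitochondrially encoded genes took 10.8% of TPM in CypD KO and 9.76% in Control. All 75 cytosolic ribosomal protein genes were alike, 55 lower in CypD KO and 4 higher, with a median of -0.17 and differences from -0.46 to 0.24.

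Among isoforms whose use depends on oxygen 6 of 9 passed, with 5 higher in CypD KO, 0 lower and 4 alike. *Cox4i1* was alike (0.18), and its hypoxic partner *Cox4i2* was below 1 TPM in all 4 libraries. With median-of-ratios scaling 3 were higher and 1 was lower. All 30 genes of the tricarboxylic acid cycle and glutamine metabolism passed, 13 higher in CypD KO, 7 lower and 23 alike, with a median of 0.12, which became 9 higher and 10 lower with median-of-ratios scaling. *Idh2*, the mitochondrial NADP-dependent isocitrate dehydrogenase, was listed at 77.2 and 78.5 TPM in CypD KO, 180.4 and 187 TPM in Control and 178 and 181 TPM in WT, low in both CypD KO libraries (-1.23 ± 0.03 SE, adjusted p = 1.18e-06). *Glul*, glutamine synthetase, followed the same pattern, at 46.6 and 46.1 TPM in CypD KO, 105 and 110.4 TPM in Control and 98.4 and 98.8 TPM in WT (-1.20 ± 0.04 SE, adjusted p = 2.63e-06). *Cs*, citrate synthase, was alike (0.05). *Pdp1*, the phosphatase that opposes the PDK kinases, was higher (1.00 ± 0.10 SE, adjusted p = 2.84e-04).

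The 18 genes of the permeability transition pore and mitochondrial calcium handling, *Ppif* included, all passed the filter (1 of them, *Mcub*, through CypD KO alone). Of these 9 were higher in CypD KO, 2 lower (*Ppif* and 1 other) and 9 alike, with a median of 0.27. With median-of-ratios scaling 8 were higher and 4 lower, *Ppif* included. *Mcub*, the dominant-negative subunit of the calcium uniporter, was listed at 4.84 and 4.82 TPM in CypD KO, 0.43 and 0.16 TPM in Control and 0.56 and 1.08 TPM in WT (2.18 ± 0.21 SE, adjusted p = 1.85e-04). *Mcu*, its pore-forming subunit, was not called (0.37 ± 0.14 SE, adjusted p = 0.0705), except without the first CypD KO library (0.0234). *Tspo*, an outer membrane protein, was at 51.5 and 55.4 TPM in CypD KO, 12.3 and 13.6 TPM in Control and 16 and 13.5 TPM in WT (1.96 ± 0.14 SE, adjusted p = 4.50e-05). The sodium-calcium exchanger *Slc8b1* was higher (1.14), and so was the ADP/ATP carrier *Slc25a4* (0.51). The channels *Vdac1* (-0.06) and *Vdac2* (-0.01) and the second carrier *Slc25a5* (-0.04) were alike.

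Cell cycle genes that were called were mostly lower in CypD KO, by small amounts. All 39 DNA replication genes passed, 26 lower, 4 higher and 30 alike, with a median of -0.24, and all 25 mitosis genes passed, 14 lower, 2 higher and 24 alike, with a median of -0.18. *Gins1*, a subunit of the replicative helicase, was listed at 21.2 and 23.9 TPM in CypD KO and 36 and 37.6 TPM in Control (-0.69 ± 0.07 SE, adjusted p = 2.17e-04). *Aurkb*, the chromosomal passenger kinase, was at 73.9 and 72.4 TPM in CypD KO and 116 and 119.8 TPM in Control (-0.68 ± 0.05 SE, adjusted p = 7.71e-05). *Ccne1*, cyclin E1, was at the WT level in CypD KO and below it in Control, with 115 and 113 TPM, 57.5 and 64.6 TPM and 117 and 103 TPM in WT (0.89 ± 0.09 SE, adjusted p = 2.98e-04).

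Larger differences were found among the regulators of the cycle, of which 12 of 16 passed, 6 higher, 4 lower and 3 alike, with a median of 0.22. *Cdkn1a*, the inhibitor p21, was listed at 459 and 450.2 TPM in CypD KO, 97.1 and 96.6 TPM in Control and 165 and 154 TPM in WT (2.22 ± 0.04 SE, adjusted p = 5.45e-07). *Ccnd1*, cyclin D1, was at 418 and 415 TPM in CypD KO, 107 and 114 TPM in Control and 135 and 136 TPM in WT (1.91 ± 0.04 SE, adjusted p = 5.81e-07). Both were high in CypD KO and below WT in Control. *Myc* was below WT in both groups and lowest in CypD KO, at 45.5 and 44.4 TPM, 71.1 and 74.8 TPM in Control and 99.1 and 93.3 TPM in WT (-0.69 ± 0.05 SE, adjusted p = 4.58e-05). Of 24 cholesterol genes, all of which passed (1 through Control alone), 4 were higher, 6 lower and 19 alike, with a median of -0.01, or 2 higher and 7 lower with median-of-ratios scaling. *Hsd17b7*, an enzyme of the synthesis, was higher (1.42 ± 0.08 SE, adjusted p = 2.00e-05).

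**Figure D5:**
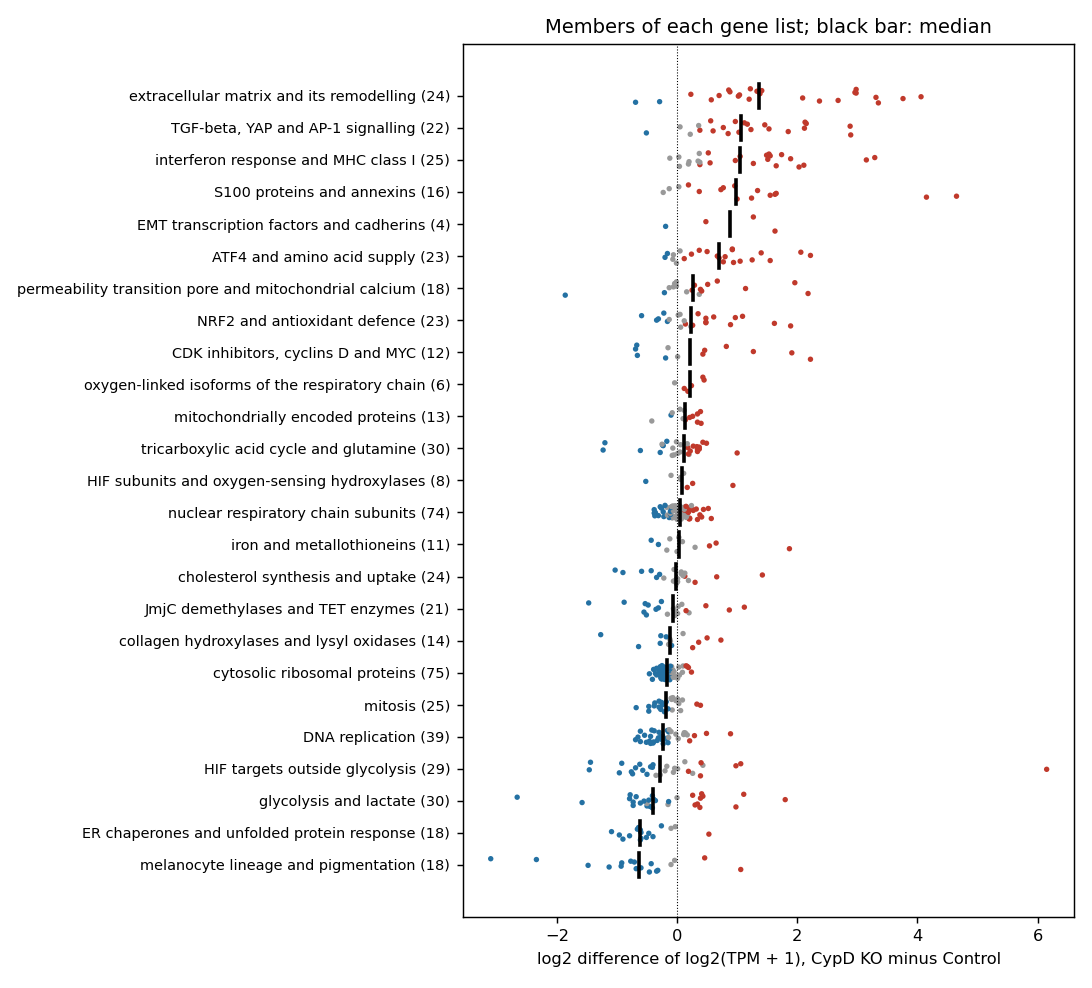
Log2 difference, CypD KO minus Control, of each tested member of 25 gene lists (number tested in brackets), red where higher in CypD KO, blue where lower and grey where not called, with a black bar at the median. Matrix genes lie furthest right, with a median of 1.36, melanocyte genes furthest left, with a median of -0.64, and respiratory chain and ribosomal genes lie close to 0.

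The genes with the largest differences, by a rule that took 12 in each direction and left out predicted genes, were for the most part far from WT in CypD KO and close to WT in Control. Control was also away from WT for *Trpm1*, where it lay above, and for *Fxyd5*, where it lay below. Not all of the higher ones are given here. Besides *S100a6* they included *Serpinb9b*, an inhibitor of serine proteases, at 75.3 and 74.4 TPM in CypD KO and 2.32 and 2.36 TPM in Control (4.51 ± 0.20 SE, adjusted p = 6.78e-06). *Fxyd5*, a regulator of the sodium pump and of cell adhesion, was listed at 178 and 182 TPM in CypD KO, 8.64 and 6.27 TPM in Control and 18.1 and 25.2 TPM in WT (4.44 ± 0.17 SE, adjusted p = 4.06e-06). The water channel *Aqp5* was at 32.4 and 26.7 TPM in CypD KO and 0.31 and 0.75 TPM in Control, and the interferon-inducible *Ifi211* at 16.5 and 16.1 TPM against 0 and 0.06 TPM. *Aqp5* and *Ifi211* passed the filter through CypD KO alone, the group in which they were high. *Serpinb8* was higher too (3.77). *Rpl39-ps1*, a pseudogene, and *H2ac19*, a histone gene, belong to the same set, as do *S100a4*, *Timp1* and *Thbs1*. The pseudogene and the histone gene have near-identical copies, so their values are uncertain.

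In the other direction *Enpp2*, the gene for autotaxin, the secreted enzyme that makes lysophosphatidic acid, was listed at 3.35 and 3.63 TPM in CypD KO, 100.2 and 103 TPM in Control and 96.6 and 101 TPM in WT. It was low in both CypD KO libraries (-4.51 ± 0.06 SE, adjusted p = 1.77e-07). The X-linked homeobox gene *Rhox5* was at 0.50 and 0 TPM in CypD KO and 22.9 and 20.0 TPM in Control, and the libraries labelled CypD OE, at 0.25 and 0 TPM, were as low as CypD KO. *Mbp*, myelin basic protein, was at 0.59 and 0.54 TPM in CypD KO and 19.1 and 18.7 TPM in Control (-3.67 ± 0.12 SE, adjusted p = 1.77e-06). *Aire*, known as the autoimmune regulator of the thymus, was with *Slc16a3* an exception, in which Control was further from WT on the log scale than CypD KO was. It was listed at 1.43 and 1.24 TPM in CypD KO, 25.9 and 33.2 TPM in Control, 0.14 and 0 TPM in WT and 0 and 0 TPM in those with the CypD OE label, so only the Control libraries exceeded 2 TPM (-3.70 ± 0.17 SE, adjusted p = 7.40e-06). *Gsta4*, a glutathione transferase, was listed at 0 in both CypD KO libraries and at 7.63 and 7.09 TPM in Control. *Slc2a4*, the insulin-responsive glucose transporter GLUT4, was at 0.04 and 0.20 TPM in CypD KO and 6.49 and 8.24 TPM in Control. *Rhox5*, *Mbp*, *Gsta4* and *Slc2a4* passed the filter through Control alone, the group in which they were high. The monoacylglycerol lipase *Mgll* (-3.11), the lipid transporter *Abca12* (-3.04), the metalloproteinase *Mmp11* (-3.00) and *Ppp1r36dn* (-3.52) were also among them, as were *Trpm1* and *Slc16a3*.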

How the data were processed

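The libraries came from cultured B16F10 cells, 2 per group in 4 groups, assigned to groups from the sample labels. Per the study's methods and the submitters' processing notes, the authors depleted ribosomal RNA, sequenced read pairs, used Cutadapt 3.4 for trimming and STAR 2.7.8a for alignment to GRCm39, and estimated abundance by RSEM 1.3.1. Deposited were TPM values per gene to 2 decimals, scaled by the authors to 1000000 in every library, for 55414 genes, of which 54749 (98.8%) matched GENCODE identifiers. The authors tested counts with DESeq2 1.26.0, but counts were not used here. A gene's TPM depends on all other genes of its library, and RSEM divides shared reads between similar genes. The kit for RNA extraction is named differently in the labels and the methods.

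Genes with at least 1 TPM in 2 of the 4 libraries were tested on the log2(TPM + 1) scale by limma 3.58.1, run in R 4.3.3 (4 group means over 8 libraries, eBayes with trend, two-sided, Benjamini-Hochberg over 12976 genes, threshold 0.05). The fit was tested on simulated data in which 200 of 12976 genes were raised by a log2 of 1 in CypD KO. It recovered 75.5% of them with 3 false calls, and made 0 calls without changes. The simulation changed far fewer genes than were called in the real data. TPM holds no depth, so depth was read from steps between low values. A fragment on 1000 effective bases was worth 0.086 to 0.0975 TPM in the 4 libraries (85.6% to 86.6% of low values within 0.15 of whole fragments), so genes under 1 TPM rest on few fragments. Replicates correlated at 0.9871 (CypD KO) and 0.9866 (Control). Names were given to *Ppif*, the HIF subunits and hydroxylases, cell type markers, the 12 largest called differences each way with no library overlap, and leading and least different members of each list, with a few further members for context; some genes that the rule takes are not reported here. The members and lists were chosen with earlier results of these data known. The alternatives were another pseudocount, other filters and scalings, other fits, a replicate block and leaving out each library. Python 3.11.15, pandas 2.3.3 and matplotlib 3.10.9 were used for summaries and figures.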

Additional observations from a re-analysis of the deposited data

How the results depend on the processing

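The counts kept within 1.5 times of those reported under the 12 alternatives, with 1 exception. Without a filter on low TPM 15334 genes were within 1.5-fold, because genes near 0 enter, and 3717 were higher and 2047 lower. Over the other alternatives that kept all 4 libraries, genes higher in CypD KO ranged from 3002 (median-of-ratios scaling) to 3778 (TPM over protein-coding genes alone), genes lower from 2091 (fit of the 4 libraries alone) to 3084 (median-of-ratios scaling) and genes alike from 6299 (pseudocount of 0.1) to 6991. Leaving out 1 library gave 2838 to 3120 higher, 1723 to 1804 lower and 5988 to 6082 alike, fewer with fewer samples. The replicate numbers follow library names only, and same-numbered libraries of the 2 groups deviated with a correlation of -0.037. With a replicate block 3610 genes were higher, 2179 lower and 6902 alike.

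Of the 158 tested genes named here 129 kept their direction and their side of the threshold in every alternative that tested them, and 0 of the 136 called genes reversed. Without 1 library 10 called genes lost the call in at least 1 fit, which are given in the report apart from *Rpl39-ps1* (0.0608 without the second CypD KO library). In the fits with all libraries, the call was lost by *Hif1a*, *Arnt*, *Gapdh*, *Pdk1*, *Col4a2*, *Spp1*, *Zeb2*, *mt-Co1*, *Pdgfrb* and *Cox4i1* under at least 1 alternative, and gained by *Bnip3* (adjusted p = 0.00355 in a fit of the 4 libraries alone), *Vdac1* and *Slc25a5* (0.00647 and 0.013 with median-of-ratios scaling). The call of *Hif1a* had an adjusted p of 0.0522 with the replicate block and that of *Col4a2* 0.0665. Genes that changed sign were not called, and apart from *mt-Nd3* lay near 0. With median-of-ratios scaling the difference became -0.03 for *Egln2* and *Nfe2l2*, -0.02 for *Egln3*, -0.06 for *Anxa6* and *H2-K1*, -0.05 for *Ifit2*, -0.09 for *Tfrc* and -0.04 for *Cs*, and for *Slc16a1* 0 over protein-coding genes. Leaving out 1 library gave -0.02 to 0.23 for *Vhl*, -0.03 to 0.16 for *Egln3*, -0.05 to 0.04 for *Slc16a1*, -0.06 to 0.12 for *Anxa6*, -0.01 to 0.08 for *Ifit2*, -0.22 to 0.28 for *H2-K1*, -0.06 to 0.03 for *Atf4*, -0.02 to 0.03 for *Tfrc*, -1.26 to 0.42 for *mt-Nd3* and -0.02 to 0.01 for *Vdac2*. Apart from the values given, the cause of these changes was not tested. Median differences of the gene lists kept their sign under the 12 alternatives, except those of nuclear respiratory chain subunits (-0.04) and iron genes (-0.05) with median-of-ratios scaling, where that of HIF subunits and hydroxylases came to 0.00, and that of cholesterol genes, which stayed within 0.01 of 0 without 1 library.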

Other observations

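The libraries labelled CypD OE carry a label of 1% oxygen like Control. They are in no tested difference here, but they share the estimate of spread in the fit of all 8 libraries. The labelled overexpression was not seen at *Ppif*, listed at 50.3 and 49.3 TPM against 50.68 and 49.99 TPM in WT. *Egln1* was at 21.2 and 22.4 TPM against 22.1 and 21.9 TPM in WT. *Loxl2* was at 0.52 and 0.34 TPM against 0.70 and 0.59 TPM in WT, where Control had 29.3 and 31.3 TPM. The paper reports that overexpressing CypD in human melanoma cells prevented stabilisation of the oxygen-regulated HIF subunit in mild hypoxia. Whether this bears on *Egln1* and *Loxl2* in these libraries was not tested. The cause of the *Ppif* level was not tested either, and the values that follow are given as listed. *Idh2* was at 143 and 141 TPM in these libraries against 180.4 and 187 TPM in Control. *Slc7a11* was at 31 and 28.8 TPM, 1.68 and 1.4 TPM in Control and 10.6 and 11 TPM in CypD KO. *S100a6*, at 7.5 and 10.8 TPM, and *Timp1*, at 3.14 and 3.26 TPM, were near Control and far below CypD KO. *Fn1* was at 64.2 and 62 TPM, above both Control libraries. For *Enpp2* these libraries lay between the other groups, at 61.9 and 58.9 TPM.

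The median log2 difference, CypD KO minus Control, varied by chromosome. It was highest on chromosome 6 (0.25 over 672 genes tested), chromosome 8 (0.21 over 691), chromosome 13 (0.19 over 483) and chromosome 3 (0.18 over 684), and lowest on chromosome 1 (-0.04 over 734). By gene type, 3511 of 11153 protein-coding genes tested were higher in CypD KO and 2092 lower. Of 758 long non-coding RNA genes 143 were higher and 73 lower, and of 545 processed pseudogenes 32 were higher and 48 lower.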
